A study of Homo sapiens with 2 samples.

Results

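The genes of prostaglandin E2 synthesis, transport, breakdown and sensing were examined in HCC15 cells, a human line grown from a lung cancer that the labels class as squamous. The 10 genes were PLA2G4A, PTGS1, PTGS2, PTGES, PTGES2, ABCC4, SLCO2A1, HPGD, PTGER2 and PTGER4. They were taken with every probe set that the platform annotation gives to one of these symbols alone, which gave 22 of the 54675 probe sets and 10 of the 19775 genes on the array. The set was chosen on the signals of these 2 arrays, the PTGES ratio above all, so the values below describe the genes and no test is made of them.

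Cells were transfected with an siRNA that targets CTNNB1 (which encodes beta-catenin, the transcriptional effector of Wnt signalling) or with a control siRNA, grown in RPMI 1640 medium with 5% serum, and collected 48 h later. Each group was 1 culture on 1 array. The control sample carries the word Tax in its title, and the labels name neither the sequence of its siRNA nor a target for it, nor whether one or several siRNAs were used against CTNNB1. The molecule is labelled total RNA, although a protocol line speaks of tRNA.

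Prostaglandin E2 is a short-lived lipid signal. Phospholipase A2 frees arachidonic acid from membranes, a cyclooxygenase turns it into prostaglandin H2, and a prostaglandin E synthase makes prostaglandin E2 from that. The product leaves the cell through carriers, acts on the EP receptors of the same or neighbouring cells, and is taken up again and oxidised. EP2 and EP4 raise cyclic AMP. Many lung and colon tumours carry high levels of the inducible cyclooxygenase and synthase and low levels of the degrading enzyme, and in colon cancer cells prostaglandin E2 has been reported to stabilise beta-catenin.

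The sequences upstream of PTGES and PTGS2 are shown because PTGES had the largest difference among the genes described, while PTGS2, the inducible enzyme it usually works with, lay under the signal filter on both of its probe sets. Each line gives the 250 bases before the annotated start, 5′ to 3′ on the gene's own strand, from RefSeq (GRCh38.p14). PTGES lies at chr9:129753043-129753292, minus strand, and PTGS2 at chr1:186680424-186680673, minus strand. Capitals mark matches to the motifs searched.
PTGES: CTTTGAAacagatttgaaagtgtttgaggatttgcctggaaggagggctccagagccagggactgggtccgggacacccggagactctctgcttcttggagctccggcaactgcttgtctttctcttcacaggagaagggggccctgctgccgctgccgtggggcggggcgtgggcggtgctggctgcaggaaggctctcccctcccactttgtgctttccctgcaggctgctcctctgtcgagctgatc
PTGS2: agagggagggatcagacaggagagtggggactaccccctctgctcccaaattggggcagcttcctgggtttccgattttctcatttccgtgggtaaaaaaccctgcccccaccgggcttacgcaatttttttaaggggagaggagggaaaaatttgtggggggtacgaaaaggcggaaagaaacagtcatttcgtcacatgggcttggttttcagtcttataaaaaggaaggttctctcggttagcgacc

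The motifs were CTTTGAA and CTTTGTT, which resemble the core that TCF/LEF factors bind, TGACGTCA, the cyclic AMP response element, and GCGGGGGCG, an EGR1-type site. Both strands were searched, and no match overlapped another. Only these exact letters were searched, so other forms of the sites were not counted. The PTGES window holds gcgtgggcg, which is itself a form of the EGR1 site and was not counted by this search. The PTGS2 window holds cgtca, a part of TGACGTCA. The PTGES window held 1 exact match, CTTTGAA on the gene's own strand from base -250 to base -244, at the far edge of the window. That motif occurred in the windows of 3.88% of 27305 genes. The share was 4.54% for CTTTGTT, 1.77% for TGACGTCA and 4.68% for GCGGGGGCG. PTGS2 had none of the full motifs in its window. Of the 9 genes with a RefSeq window, only PTGES and PTGER2 had an exact match. PTGER2 held GCGGGGGCG at 2 places, from -53 to -45 and, on the opposite strand, from -151 to -143. SLCO2A1 was not analysed here. A match describes letters and is not evidence of binding.

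Values are MAS5 signals, a linear intensity for each probe set. Ratios are CTNNB1 siRNA over control siRNA on the log2 scale, after signals under 13.8, the 25th percentile of all values, were raised to that floor. A probe set entered when its mean signal over both arrays reached 49.1, the median of all values. Where several probe sets of a gene entered, the one with the highest mean stood for the gene. By this rule 5 of the 10 genes entered (PTGES, PTGES2, PTGS1, PTGER4 and ABCC4), with 9 of the 22 probe sets, and the other 5 genes lay under the filter. As a measure of error, the SD of log2 ratios between probe sets of 1 gene was 0.42, pooled over 5791 genes, and it covers neither culture nor hybridisation.

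The siRNA target and the cell type were checked first. CTNNB1 probe set 201533_at read 339 with CTNNB1 siRNA and 1224 with control siRNA, 27.7% of the control. The dimmer 1554411_at (45.8 and 89.8) and 223679_at (118.4 and 129.7) read 51.0% and 91.3% of the control. Of 8 squamous markers, 3 entered (SFN, PERP and SOX2), KRT5, KRT14 and DSG3 lay under the filter, and TP63 and KRT6A had no probe set of a single symbol. Of 5 lung adenocarcinoma markers, 4 entered (KRT7, SFTPB, SFTPC and NAPSA), and NKX2-1 lay under the filter. SFTPC entered on 38691_s_at only, and its other probe sets were under the floor on both arrays. SOX2 entered on 1 probe set, at 41.6 with CTNNB1 siRNA and 60.1 with control siRNA. Entering alone therefore does not show that a marker was expressed. The brightest were KRT7 (9008 with CTNNB1 siRNA and 6952 with control siRNA), SFN (5009 and 5472) and PERP (3969 and 3189). Leukocyte and endothelial markers were under the filter except CD14 and PECAM1, and CD68 had no probe set of a single symbol. The median signal was 46.7 on the CTNNB1 siRNA array and 51.3 on the control array, and over the 12531 entering genes the log2 ratio had a median of 0.15. The median ratio depended on signal, from -0.23 in the lowest decile of mean signal to 0.27 in the highest. No comparison with the median of all genes below allows for this.

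PTGES was the gene of the set that differed most between the arrays. It encodes the inducible microsomal prostaglandin E synthase, which converts prostaglandin H2 to prostaglandin E2. Probe set 210367_s_at read 2228 with CTNNB1 siRNA and 384 with control siRNA, 5.80-fold higher and a log2 ratio of 2.54. The second probe set, 207388_s_at, read 463 with CTNNB1 siRNA and 118 with control siRNA, 3.91-fold higher and a log2 ratio of 1.97. Both probe sets were therefore higher with CTNNB1 siRNA, by log2 ratios 0.57 apart, against an SD of 0.60 for such a difference between probe sets of a gene. The names of both PTGES probe sets end in _s_at, a class whose probes can match more than one transcript. No PTGES value remained when that class was left out.

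Of the 5 entering genes, PTGES alone was at least 2-fold higher and 0 were at least 2-fold lower. Among all entering genes 2.29% were at least 2-fold higher and 2.38% at least 2-fold lower (4.67% in either direction). Nothing is read from this comparison, since the choice of genes used the same contrast. PTGES ranked 7 of 12531 genes by increase. Of the 5791 genes with several entering probe sets, 19 had all of them at least 2-fold higher. PTGES alone had all of them at a log2 ratio of 1.97 or more, a cut taken from its own lower probe set. The set was chosen for the PTGES ratio, so nothing is read from its rank or from this count either.

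**Figure D1:**
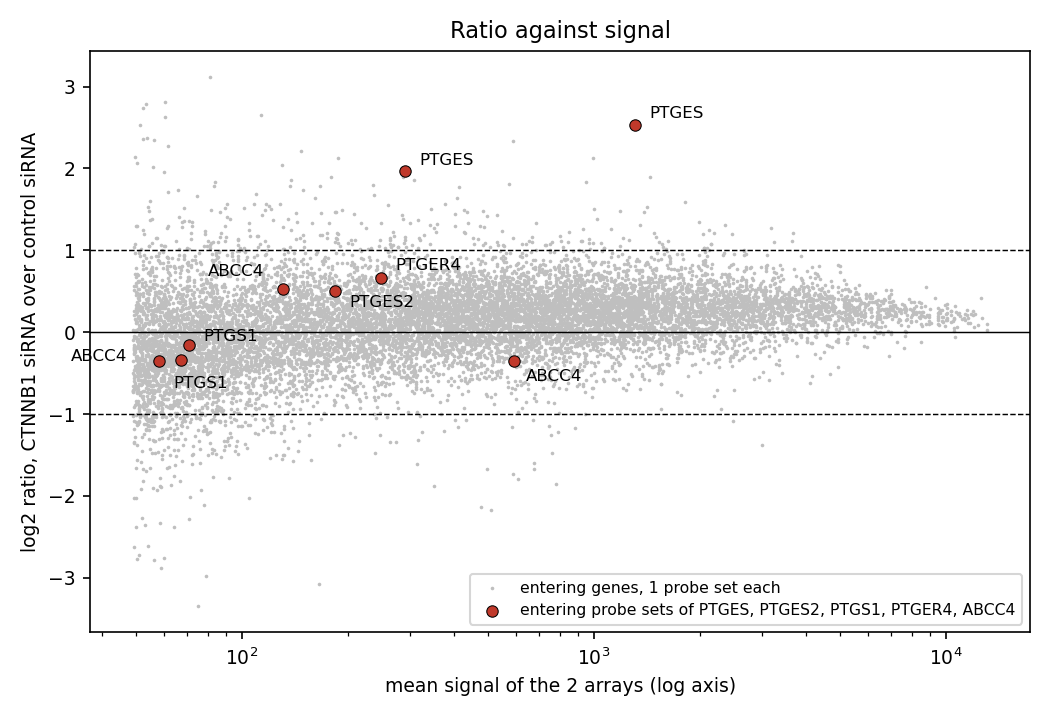
Log2 ratio of CTNNB1 siRNA over control siRNA (vertical) against the mean signal of the 2 arrays (horizontal, log axis). Grey points are the 12531 entering genes, 1 probe set each, red points are the 9 entering probe sets of the genes described, and dashed lines mark 2-fold. The PTGES probe sets, at 2.54 and 1.97, lie above the upper line, and the other 7 lie between the lines.

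The genes with the ratios nearest to that of PTGES, among genes outside the lists that reached a signal of 209 (the 75th percentile of all values), were BCL9L, IL11, COXFA4L3, LMNB1 and CLDN11. That signal could be reached on either array, and BCL9L, IL11, COXFA4L3 and CLDN11 reached it with CTNNB1 siRNA but not with control siRNA, while LMNB1 reached it on both. Their log2 ratios lay from 0.20 (BCL9L) to 0.49 (CLDN11) below that of PTGES. BCL9L had a second entering probe set at a log2 ratio of 0.84, under 2-fold. IL11, COXFA4L3, LMNB1 and CLDN11 had 1 entering probe set each. Likeness here rests on 1 ratio from 2 arrays. The genes beside PTGES on the chromosome, in the gene order of RefSeq, did not share the size of its ratio. PRRX2 on one side read 110.7 with CTNNB1 siRNA and 87.4 with control siRNA, a log2 ratio of 0.34. TOR1B on the other side read 620 with CTNNB1 siRNA and 506 with control siRNA, a log2 ratio of 0.29. Further out, ASB6, TOR1A and C9orf78 had log2 ratios of 0.23, 0.60 and 0.25. These neighbours were taken for their position.

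PTGES2 encodes a structurally unrelated prostaglandin E synthase. Its 1 probe set, 218083_at, read 216 with CTNNB1 siRNA and 152 with control siRNA, a log2 ratio of 0.51. The ratio lay 0.36 above the median of all genes, which is less than the probe set SD of 0.42. The third enzyme credited with this step, PTGES3, is better known as the HSP90 co-chaperone p23. PTGES3 read 8462 with CTNNB1 siRNA and 7421 with control siRNA, a log2 ratio of 0.19 whose sign turned under some scalings. The 2-fold difference within this enzyme step was thus measured for PTGES and for neither of the other synthases.

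Upstream of the synthase, PTGS1 entered, and PTGS2 and PLA2G4A lay under the filter. PTGS1 encodes the cyclooxygenase that many cells make constantly. Its 2 entering probe sets read 66.8 (205128_x_at) and 59.3 (215813_s_at) with CTNNB1 siRNA, against 74.5 and 75.3 with control siRNA, log2 ratios of -0.16 and -0.34. A dim PTGS1 probe set, 205127_at, read 7.4 with CTNNB1 siRNA and 46.2 with control siRNA, at least 3.35-fold lower when the smaller value is raised to the floor. The last, 238669_at, read 6.3 with CTNNB1 siRNA and 15.4 with control siRNA. All 4 PTGS1 probe sets were lower with CTNNB1 siRNA, but they disagreed on the size, and the entering ones lay within the probe set SD of 0.

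PTGS2 encodes the inducible cyclooxygenase. It read 23.3 with CTNNB1 siRNA and 23 with control siRNA on 204748_at, and on 1554997_a_at it read 6.2 with CTNNB1 siRNA and 1.8 with control siRNA, both under the floor. Neither probe set entered, and the first differed by a log2 ratio of 0.02. PLA2G4A encodes the cytosolic phospholipase A2 that supplies arachidonic acid. Its 1 probe set read 3.9 with CTNNB1 siRNA and 24.3 with control siRNA, at least 1.76-fold lower against the floor. The array gives no detection calls in the sources used here, so a dim signal is not shown to be absence of the transcript.

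**Figure D2:**
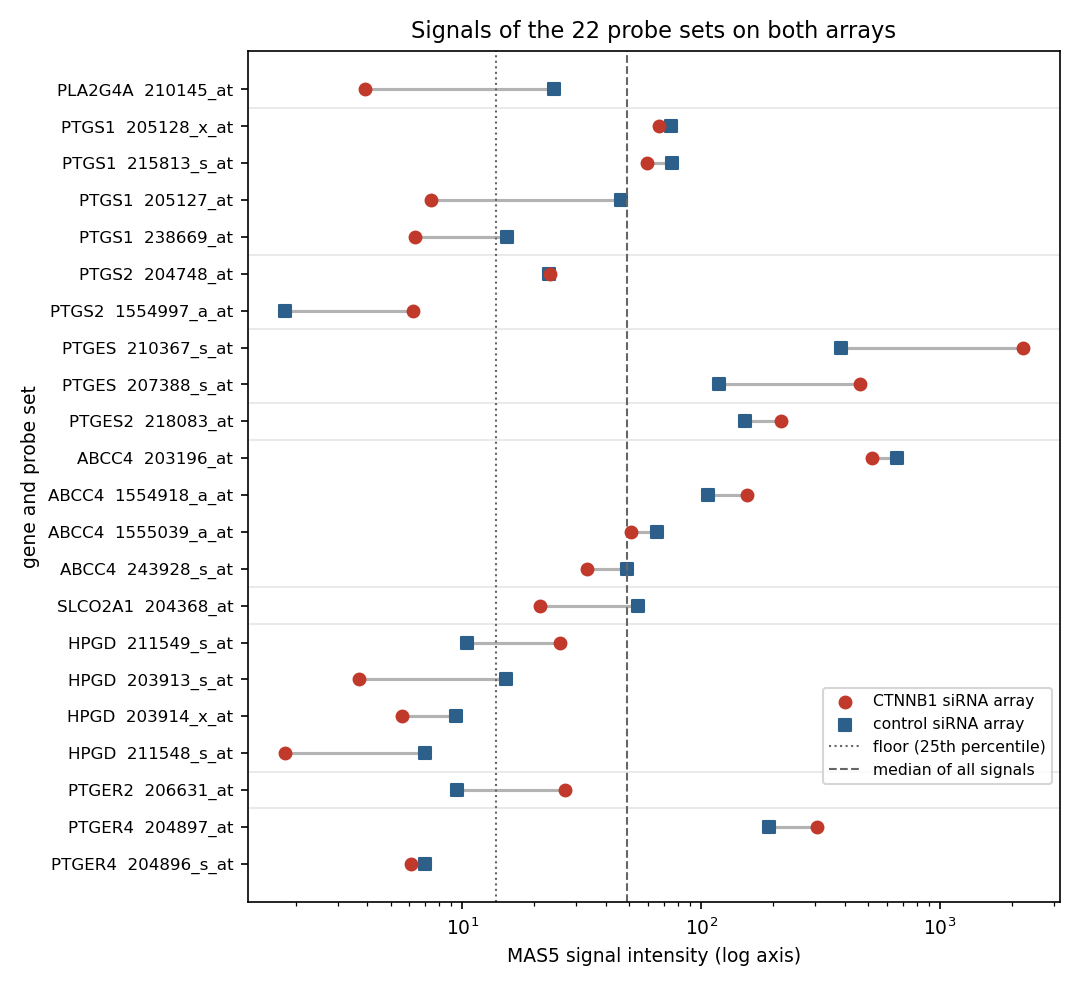
MAS5 signal (horizontal, log axis) of each of the 22 probe sets of the genes described, ordered by step from phospholipase to receptors, on the CTNNB1 siRNA array (red circles) and the control siRNA array (blue squares). The dotted line marks the floor of 13.8 and the dashed line the median of 49.1. The 2 PTGES rows show wide gaps above the median, while the wide gaps of PLA2G4A, HPGD and PTGER2 lie at signals below it.

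Of the genes of transport and breakdown, ABCC4 entered, under 2-fold, and SLCO2A1 and HPGD lay under the filter. ABCC4 encodes the efflux pump MRP4, which carries prostaglandin E2 out of the cell. Its probe set 203196_at read 521 with CTNNB1 siRNA and 663 with control siRNA, a log2 ratio of -0.35, which is 0.50 lower than the median of all genes. The other entering ABCC4 probe sets went both ways. Probe set 1554918_a_at read 155.1 with CTNNB1 siRNA and 107.2 with control siRNA, and 1555039_a_at read 51 with CTNNB1 siRNA and 65.1 with control siRNA. The ABCC4 probe set under the filter, 243928_s_at, read 33.3 with CTNNB1 siRNA and 48.9 with control siRNA. Lower signals on 3 of 4 ABCC4 probe sets and a higher one on the other leave the direction of the gene unsettled.

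SLCO2A1 encodes the prostaglandin transporter, which brings prostaglandin E2 back into cells. Its 1 probe set read 21.1 with CTNNB1 siRNA and 54.4 with control siRNA, 2.58-fold lower, with both values above the floor and their mean under the filter. HPGD encodes the dehydrogenase that begins prostaglandin inactivation. Its 4 probe sets read 25.6, 3.7, 5.6 and 1.8 with CTNNB1 siRNA, against 10.5, 15.2, 9.4 and 7 with control siRNA. The first was higher and the other 3 lower with CTNNB1 siRNA, and each HPGD probe set had at least 1 value under the floor.

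Of the 13 probe sets of these genes under the filter, 4 had both signals under the floor, 6 had 1 and 3 had none. Among them, 2 were at least 2-fold lower (PTGS1 205127_at and SLCO2A1) and 0 at least 2-fold higher. Both had a mean signal between the floor and the median, and of the 15052 probe sets on the array in that range 30.4% were past 2-fold, 19.4% lower and 11% higher. A 2-fold difference is thus common at this signal, and the values of SLCO2A1, PTGS1 205127_at, PLA2G4A, HPGD and PTGER2 are given as readings.

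Besides PTGES, the receptor gene PTGER4 lay above the median of all genes by more than the probe set SD. It encodes EP4, which couples to the stimulatory G protein. Probe set 204897_at read 305 with CTNNB1 siRNA and 193 with control siRNA, 1.58-fold higher and a log2 ratio of 0.66, which is 0.51 above the median of all genes. Its second probe set, 204896_s_at, read 6.1 with CTNNB1 siRNA and 7 with control siRNA, both under the floor. PTGER4 lay under the 2-fold rule, and 91.6% of entering genes had a lower ratio. PTGER2 encodes EP2. Its 1 probe set read 26.9 with CTNNB1 siRNA and 9.5 with control siRNA, at least 1.95-fold higher against the floor, with a mean under the filter.

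Other prostanoid genes were covered by 11 further lists, which also hold leukotriene, MAPEG and cyclic AMP genes, reported inducers and mRNA binding factors. Of their 96 genes, 90 had a probe set of a single symbol and 71 entered. None of the 71 was at least 2-fold higher and 2 were at least 2-fold lower, 2.82% in all, beside 4.67% of all entering genes. Their median log2 ratio was 0.12, beside 0.15 over all entering genes.

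**Figure D3:**
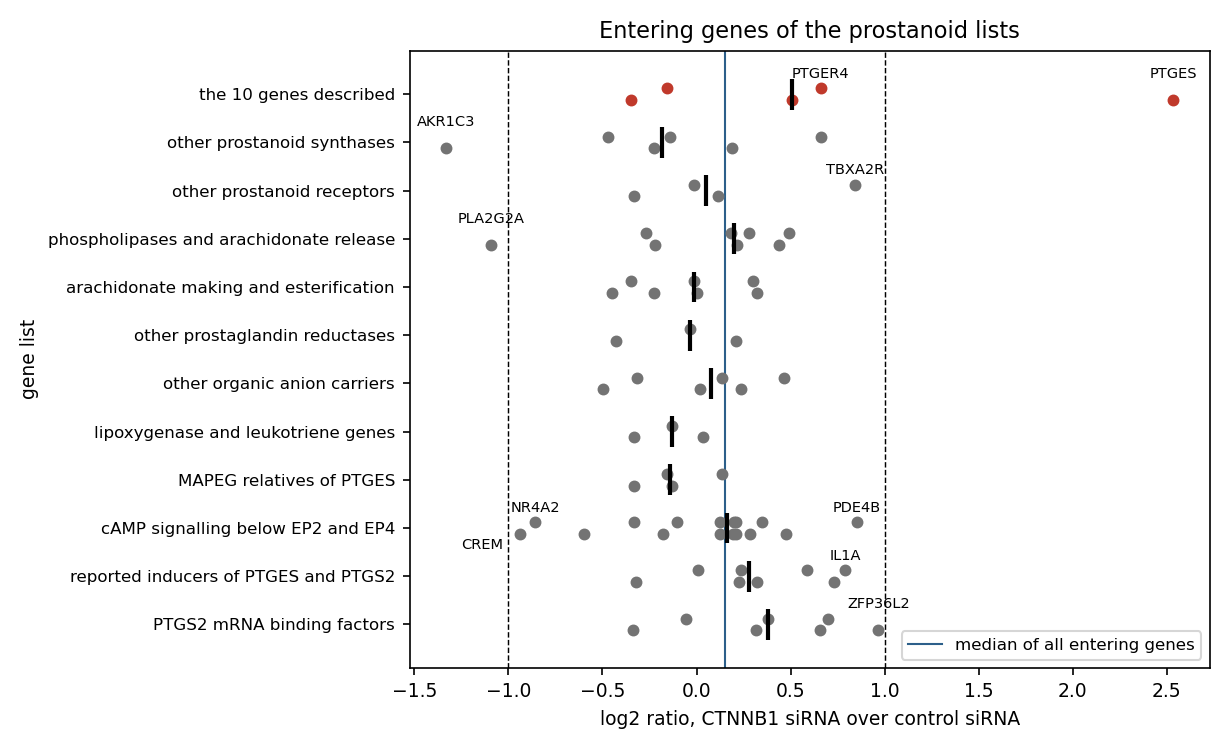
Log2 ratio of CTNNB1 siRNA over control siRNA (horizontal) for each entering gene of the genes described (red) and of the 11 further lists (grey), with each list's median as a black bar, the median of all entering genes as a blue line and 2-fold as dashed lines. PTGES at 2.54 stands alone beyond the upper line, and AKR1C3 and PLA2G2A lie beyond the lower one.

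Both genes past the rule make or release other prostanoid substrates and products. AKR1C3, an aldo-keto reductase that makes prostaglandin F2 alpha and also acts on steroids, read 55.2 with CTNNB1 siRNA and 139 with control siRNA, 2.52-fold lower. It has close paralogs whose transcripts its probes may share. PLA2G2A, a secreted phospholipase A2, read 31.9 with CTNNB1 siRNA and 68.1 with control siRNA, 2.14-fold lower, from a dim signal. PLA2G2A had log2 ratios under 2-fold after quantile normalization (-0.96), loess (-0.87) and scaling to a common median (-0.96), and with the floor at the median (-0.47). Of the 6 entering synthase genes, PRXL2B, an enzyme reported to make prostaglandin F2 alpha, had a log2 ratio of 0.66, and the prostaglandin D synthase gene PTGDS of -0.47.

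Other prostanoid receptors stayed under 2-fold in all 4 genes that entered. The thromboxane receptor gene TBXA2R had the largest ratio, 0.84, from 169.6 with CTNNB1 siRNA and 94.7 with control siRNA. Its other entering probe sets also lay above 0, at 0.66 and 1.59. The prostacyclin receptor gene PTGIR had a log2 ratio of -0.33. The EP1 gene PTGER1 had 0.11, with a sign that turned under some scalings.

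The genes of arachidonate supply gave ratios of both signs. Of 8 entering genes of arachidonate release, PLA2G2A alone passed 2-fold. In the same list DAGLB and MGLL, which act in turn on diacylglycerol and its monoglyceride product, had log2 ratios of 0.49 and 0.44, and PLAAT3 had 0.28. DAGLB turned to -0.16 without the _s_at and _x_at probe sets. Among 7 genes of arachidonate making and esterification, none passed 2-fold, with ACSL5 at -0.45, the desaturase gene FADS2 at -0.35, ACSL4, which activates arachidonic acid, at 0.32 and the elongase gene ELOVL5 at 0.30. The signs of ACSL4 and ELOVL5 were not the same in every setting.

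Other carriers and reductases were likewise under 2-fold. SLCO3A1 had a log2 ratio of -0.50, SLCO4A1 of 0.47, ABCC3 of -0.32 and ABCC1 of 0.14, the signs of ABCC3 and ABCC1 turning in at least 1 setting. The prostaglandin reductase genes PTGR2, PTGR1 and PTGR3, whose enzymes act after HPGD, had -0.43, 0.21 and -0.04, and the signs of PTGR1 and PTGR3 turned.

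The MAPEG family, to which PTGES belongs by structure, did not share its ratio. Of its 5 other listed members, 4 entered. As deposited all 4 lay below the median of all genes, MGST1 only narrowly, with no allowance for signal. MGST1, a microsomal glutathione transferase gene, read 4203 with CTNNB1 siRNA and 3827 with control siRNA, a log2 ratio of 0.14 whose sign turned under some scalings. MGST2 had a log2 ratio of -0.16, and ALOX5AP, which presents arachidonic acid to lipoxygenase, of -0.33. In the leukotriene branch 3 of 10 genes entered, with LTA4H at 0.04 and LTB4R at -0.13, both of changing sign, and ALOX5AP the third.

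Genes on the cyclic AMP route below EP2 and EP4 lay on both sides of the median of all genes. All 16 with a probe set entered, 8 above and 8 below that median, and none passed 2-fold. CREM, a cyclic AMP responsive transcription factor gene, read 1064 with CTNNB1 siRNA and 2039 with control siRNA, a log2 ratio of -0.94. All 5 of its entering probe sets were lower, from -1.30 to -0.63. NR4A2, an orphan receptor gene induced by cyclic AMP in many cells, read 528 with CTNNB1 siRNA and 957 with control siRNA, a log2 ratio of -0.86, with its 3 entering probe sets from -1.03 to -0.58.

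CREM and NR4A2 passed 2-fold after quantile normalization, loess, centring on the median ratio and scaling to a common trimmed mean, but not after scaling to a common median. The phosphodiesterase gene PDE4B, also inducible by cyclic AMP, read 716 with CTNNB1 siRNA and 396 with control siRNA, a log2 ratio of 0.85. Its other entering probe sets, at 0.45 and -0.24, disagreed. GNAS, the gene of the stimulatory G protein alpha subunit, had a log2 ratio of 0.21, which changed sign between scalings.

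Genes reported to induce PTGES or PTGS2 gave ratios under 2-fold in all 8 that entered, with a median of 0.28. The interleukin-1 genes IL1A and IL1B had log2 ratios of 0.79 and 0.73, although a dim IL1B probe set read 16.6 with CTNNB1 siRNA and 16.4 with control siRNA. EGR1, a transcription factor reported to act on the PTGES promoter, read 450 with CTNNB1 siRNA and 300 with control siRNA, a log2 ratio of 0.59. Of its other entering probe sets, 227404_s_at had 0.62 and the dimmest, 201693_s_at, had -0.58. The direction of EGR1 thus depended on the probe set. HIF1A had 0.23, with a sign that turned in some settings.

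Factors that bind PTGS2 mRNA had the highest median of the further lists, 0.38 over 7 genes. ZFP36L2, which promotes mRNA decay, read 1994 with CTNNB1 siRNA and 1020 with control siRNA, just under 2-fold at a log2 ratio of 0.97. ZFP36L1 had 0.65 and HNRNPD 0.38. KHSRP had 0.70, with 1.66 on its second entering probe set and a dim one, 227555_s_at, lower at 13.7 with CTNNB1 siRNA against 70.4 with control siRNA. ZFP36L2 passed 2-fold with scaling to a common median and KHSRP with the median over its probe sets. Of the other list members, ELAVL1 had 0.315, ZFP36 -0.05 and TIA1 -0.34. Entering probe sets ran from -0.50 to 0.315 for ELAVL1 and from -0.37 to 0.72 for TIA1.

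The sign of each of the 5 entering genes was the same in all settings in which the gene entered. PTGES had log2 ratios from 2.25 to 2.67 over 10 settings, always past 2-fold. PTGER4 ran from 0.44 to 0.79, PTGES2 from 0.29 to 0.64, PTGS1 from -0.37 to -0.02 and ABCC4 from -0.57 to -0.21, always under it. These ranges cover processing only, since neither group had a second array.

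**Figure D4:**
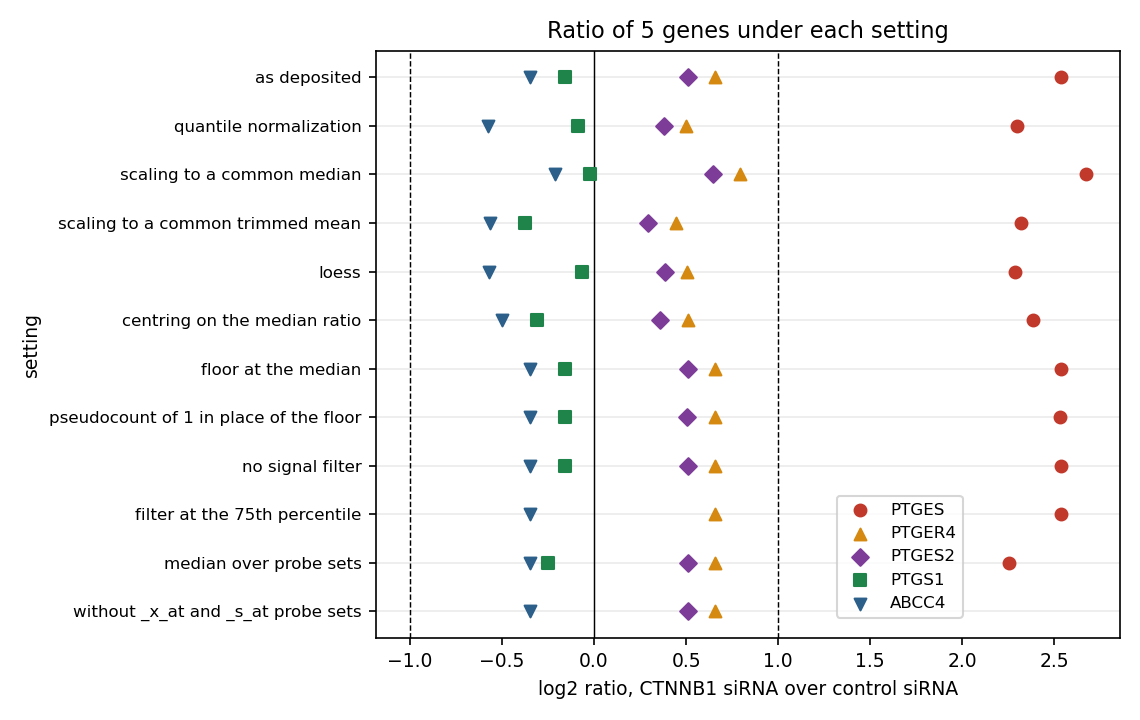
Log2 ratio of CTNNB1 siRNA over control siRNA (horizontal) of the 5 entering genes, 1 row for the deposited scaling and 1 for each of 11 alternatives, with 2-fold as dashed lines; a missing symbol means the gene did not enter. PTGES stays between 2.25 and 2.67 wherever it entered, and the other 4 stay between the dashed lines.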

How the data were processed

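The deposited values were signal intensities of 54675 probe sets on 2 arrays, made by the authors with MAS5, per the submitters' processing notes. The sources used here do not give its version, its target intensity, any scaling or detection calls. Gene names came from the platform annotation in GEO, in which 41097 had 1 gene symbol, 1801 had several and 11777 were not listed. Symbols were updated through Entrez numbers to RefSeq names, with a match for 41043. Log2 ratios were taken of the deposited intensities with no further scaling, with the floor, filter and 2-fold rule given above, in Python 3.11.15 with pandas 2.3.3, numpy 2.4.6 and statsmodels 0.14.6 (loess span 0.3). The probe set of a gene was chosen by the mean of the same 2 signals that give its ratio, with both arrays weighted alike.

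With 1 array per group no test between conditions was possible, no p-value is given, and the number of arrays limits the precision. The calculations were tested on simulated arrays with known changes. The 10 genes and all lists were chosen with earlier results of these data known. Genes named were the 10, CTNNB1 and the cell type markers, in each list those past 2-fold, the gene with the highest mean signal and the 3 with the largest absolute ratio, and the 5 nearest to PTGES in ratio. ELAVL1, ZFP36, TIA1 and the neighbours of PTGES lie outside that rule, as do NR4A1, ALOX15B, ALOX5, IL1R1 and PTGDR2 below. The 11 alternatives changed the scaling, the floor, the filter or the choice of probe sets.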

Additional observations from a re-analysis of the deposited data

How the results depend on the processing

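No paired analysis was possible because each group had 1 array. PTGES was the 1 gene of the set past 2-fold in every alternative in which it entered, but without _x_at and _s_at probe sets it did not enter, and the count of genes of the set at least 2-fold higher was 0. With no signal filter 1 gene of the set, SLCO2A1, was at least 2-fold lower, and its log2 ratio was -0.15 with the floor at the median.

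Of the 71 pathway genes 0 were higher and 2 lower as deposited. The lower count was 4 after quantile normalization and after centring on the median ratio, 3 after loess, 5 after scaling to a common trimmed mean, 1 after scaling to a common median, with the floor at the median and without _x_at and _s_at probe sets, 4 with no filter, and 0 with the filter at the 75th percentile. NR4A1 was among them after quantile normalization (-1.21) and with the common trimmed mean (-1.51). As deposited, NR4A1 had -0.33 on 210226_at, which stood for the gene, and -1.29 on its other entering probe set, 202340_x_at. The 2 were of similar signal, so the probe set that stood for NR4A1 could differ between settings. The higher count was 1 (ZFP36L2) with scaling to a common median, 1 (KHSRP) when probe sets of a gene were summarised by their median, and 2 with no filter, where ALOX15B (1.98) and ALOX5 (1.69) were higher and IL1R1 (-1.97) and PTGDR2 (-2.56) lower, all dim. The median of these genes ran from -0.09 to 0.26, as the median of all genes moved with the scaling from -0.07 to 0.29.

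Over all genes 287 were higher and 298 lower as deposited. The counts were 472 and 183 with a common median, 128 and 543 with a common trimmed mean, 163 and 448 after centring, 721 and 1271 with no filter, 139 and 34 with the stricter filter, the 75th percentile, and 160 lower with the floor at the median. The share of calls that were lower was 50.9% as deposited, 27.9% with a common median and 80.9% with a common trimmed mean. Of 39 genes of the further lists named by the rule, 14 changed sign in at least 1 alternative. No called ratio reversed. Of the 557 single ratios compared, 18 moved by more than the probe set SD, most of them of dim probe sets; the cause was not tested for the others.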
